A study of Homo sapiens with 9 samples.

Results

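Of the 4443 intervals that the authors' peak caller reported for RNA polymerase II after knockdown of DHX9, 2248 (50.6%) shared no base with any interval reported for control cells or for cells with knockdown of U2AF1. These 2248 peaks, called members below, are described here. They were chosen by the presence or absence of a called peak in the 3 deposited lists, so their number, strength and width are descriptions and carry no test. The same rule left 802 of 2757 peaks (29.1%) only in the control list and 413 of 1730 (23.9%) only in the U2AF1 knockdown list. The 2195 other DHX9 knockdown peaks comprised 830 with a base in both other lists, 1005 with a base in the control list alone and 360 with a base in the U2AF1 list alone.

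The cells were HEK293T, an established human embryonic kidney line that carries the SV40 large T antigen. Chromatin was immunoprecipitated with an antibody against POLR2A, the catalytic large subunit of the polymerase, and sequenced. Cells received a control short hairpin RNA (labelled shCtrl, called wildtype in the design text), a knockdown of U2AF1 or a knockdown of DHX9. Each condition had 2 ChIP samples and 1 input sample, which is chromatin taken before the immunoprecipitation. Each condition has 1 list of peaks, which the labels attach to both ChIP samples, so no comparison here has a replicate error. Peak names differ between lists: only those of control cells end in a replicate number, so the control list may come from a single ChIP sample, which the sources used here do not settle. The read depth of the samples is not given in the sources used here, and differences in list length between conditions cannot be told apart from differences in depth, antibody yield or the number of libraries used. DHX9 itself had 1 peak at a start site in each list, with a fold enrichment over background of 4.47 in control cells, 4.81 in DHX9 knockdown cells and 6.03 in U2AF1 knockdown cells. A hairpin acts on the messenger RNA, so a polymerase peak at the gene does not check the knockdown.

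RNA polymerase II starts at promoters, and at many genes it pauses just downstream of the start before it elongates, which gives ChIP peaks centred near the start. DHX9 (RNA helicase A) unwinds RNA and RNA:DNA hybrids and binds RNA polymerase II. U2AF1 is the small subunit of the factor that recognises the 3′ splice site. Hybrids of nascent RNA with the template strand (R-loops) form most readily downstream of starts where the coding strand is rich in G over C.

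The sequences below show what the peaks found only under DHX9 knockdown look like in the reference genome (hg38, the build named in the submitters' processing notes). Each is a stretch of such a peak, 5′ to 3′, that touches no annotated exon and whose summit window has no further placement in the genome. The first group was chosen from the strongest peaks at start sites with such a stretch that holds CCGGAAG, the core that ETS transcription factors bind, a motif found in a larger share of these peaks than of the other DHX9 knockdown peaks. Capitals mark the motif on either strand.
PDRG1, chr20:31952047-31952146, minus strand: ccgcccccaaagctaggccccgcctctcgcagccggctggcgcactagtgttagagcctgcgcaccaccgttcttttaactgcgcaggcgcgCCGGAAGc
CDKN2AIP, chr4:183444522-183444621, plus strand: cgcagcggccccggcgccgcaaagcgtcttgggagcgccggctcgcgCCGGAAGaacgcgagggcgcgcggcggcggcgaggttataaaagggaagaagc

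The capital letters begin 8 bases upstream of the annotated start at PDRG1 and 66 upstream at CDKN2AIP. The peaks had a fold enrichment of 8.54 and 8.22. PDRG1 encodes a subunit of a prefoldin-like chaperone complex and CDKN2AIP a protein that binds the tumour suppressor ARF. The next group holds TATAAA, the TATA box, which was rarer in these peaks than in the others. The CDKN2AIP stretch above holds it too, in lower case, and the next strongest with it outside exons were weaker peaks, of fold enrichment 6.31 at SKP1, 6.29 at the gene ENSG00000289341 and 6.28 at AK1.
SKP1, chr5:134176965-134177027, minus strand: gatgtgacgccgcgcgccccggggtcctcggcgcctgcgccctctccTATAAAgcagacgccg
ENSG00000289341, chr1:225999515-225999614, plus strand: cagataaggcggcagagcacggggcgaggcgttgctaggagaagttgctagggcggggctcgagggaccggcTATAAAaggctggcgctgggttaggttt
AK1, chr9:127877676-127877775, minus strand: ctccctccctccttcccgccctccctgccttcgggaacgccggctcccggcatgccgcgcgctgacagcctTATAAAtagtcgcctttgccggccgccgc

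The box began 28 bases upstream of the start at ENSG00000289341 and 33 upstream at AK1, near where a working TATA box lies, and 60 upstream at SKP1. SKP1 is the adaptor of SCF ubiquitin ligases and AK1 is adenylate kinase. The last group shows the strongest peak at a start with an AP-1 site (TGANTCA), a strong one with a run of the G-quadruplex pattern on the coding strand, and the strongest peak inside a gene and outside genes, with no motif marked in the latter pair.
CALU, chr7:128738944-128739043, plus strand: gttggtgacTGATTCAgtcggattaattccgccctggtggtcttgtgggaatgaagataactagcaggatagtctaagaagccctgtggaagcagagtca
TUBB3, chr16:89923459-89923558, plus strand: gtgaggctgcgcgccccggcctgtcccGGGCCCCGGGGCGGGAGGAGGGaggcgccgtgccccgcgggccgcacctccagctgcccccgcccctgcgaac
SLC29A3 intron, chr10:71377347-71377446, plus strand: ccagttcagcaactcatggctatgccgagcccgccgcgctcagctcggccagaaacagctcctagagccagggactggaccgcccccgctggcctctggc
outside genes, chr7:76166748-76166847, plus strand: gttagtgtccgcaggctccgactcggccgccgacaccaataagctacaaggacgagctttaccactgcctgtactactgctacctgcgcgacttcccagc

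The TUBB3 stretch is 84.0% G and C and lies in an intron downstream of the start, while the CALU stretch, upstream of its start, is 48.0% G and C. The SLC29A3 and intergenic stretches are 68.0% and 59.0% G and C.

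The peaks found only under DHX9 knockdown were weak to moderate. Their median fold enrichment was 4.86 (quartiles 4.20 and 5.68, range 1.18 to 10.8), against 5.94 for the other DHX9 knockdown peaks, whose highest value was 111.8. The median -log10 q value, the authors' measure of significance, was 4.91 against 8.26, and the median width 279 against 384 bp. The number of fragments stacked at each summit was recovered from the deposited fold enrichment and -log10 p value, and had a median of 15 (quartiles 13 and 18) over a background of 2.19, against 20 over 2.33 in the others. A stack of 15 fragments is a small count, and the intervals given with such stacks below cover counting error only. None of the 100 strongest DHX9 knockdown peaks by fold enrichment was found only there, nor were more than 54 of the strongest 500. By deciles of fold enrichment, peaks found only under DHX9 knockdown made up 58.4% of the weakest decile, 73.0% of the next and 8.33% of the strongest.

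**Figure D1:**
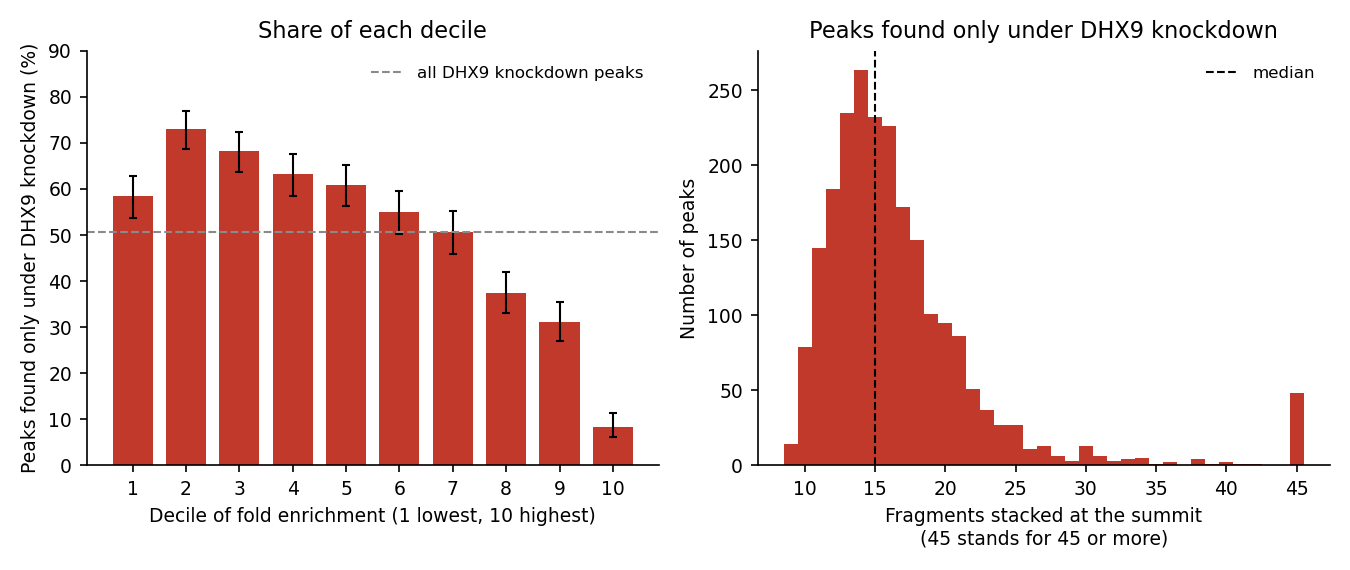
Left, share of each decile of the 4443 DHX9 knockdown peaks, ordered by fold enrichment, that was found only under DHX9 knockdown (bars, with 95% Wilson intervals; the dashed line is 50.6%). Right, fragments stacked at the summit of the 2248 peaks found only under DHX9 knockdown, with the median of 15 dashed; the share falls from 73.0% in the second decile to 8.33% in the last.

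The 10 strongest peaks lay at starts of genes with varied roles. The highest fold enrichment, 10.8, was 537 bp downstream of the start of RNVU1-19, a variant U1 small nuclear RNA gene (chr1:120850183-120850582, rank 161 of the list, 30 fragments, 95% Poisson interval 20.2 to 42.8). The sequence under that summit had 3 further placements in the genome, so reads there may come from a related copy. KANSL2, a subunit of the NSL histone acetyltransferase complex, followed with a fold enrichment of 10.6 over chr12:48681999-48682626, its summit 8 bp upstream of the start. AGBL3, a carboxypeptidase that trims glutamates from tubulin, had 10.5 over chr7:134986452-134986834.

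TAF5, a subunit of the general transcription factor TFIID, had a fold enrichment of 10.1 over chr10:103367859-103368186 and 26 fragments. NOP2, a methyltransferase of ribosomal RNA in the nucleolus, had 10.0 over chr12:6568121-6568474 and 30 fragments. CEP78, a centrosome protein, had 9.71 over chr9:78235897-78236267. The other four of the strongest were LACTB2, a ribonuclease of mitochondria, at 9.58, SH3BP2, a signalling adaptor, at 9.07, CALU, a calcium-binding protein of the secretory pathway, at 8.95, and ZNF354A, a zinc finger protein, at 8.90. By the rule no peak of the other lists shared a base with these intervals, and the nearest to that at KANSL2 was 34361 bp away.

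At the edge of the rule, the peak at MRPL36, a mitochondrial ribosomal protein gene, abutted a control peak with a gap of 0 bp, and that at ENSG00000268129 lay 7 bp from a peak of another list. Just outside the rule, the DHX9 knockdown peaks at TTC34, ENSG00000283360 and H2BC4 shared 9, 13 and 15 bp with a peak of another list. These peaks had like strength, with fold enrichments of 3.84 and 4.21 inside and 3.47, 3.55 and 3.52 outside. Few members sat so close: 92 of 2248 (4.09%) had a peak of another list within 1000 bp.

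Most of the peaks found only under DHX9 knockdown were promoter peaks. Position was not used by the rule, so it can be compared. Of the 2203 on annotated chromosomes, 1967 (89.3%, 95% Wilson interval 87.9 to 90.5) had their summit within 1000 bp of an annotated transcript start, 125 (5.67%) lay inside a gene farther from any start, and 111 (5.04%) lay outside genes. Among the 2113 other DHX9 knockdown peaks on those chromosomes the start site share was 93.5%, a difference of -4.23 percentage points (95% Newcombe interval -5.90 to -2.56). The others were not alike: the share was 93.5% among peaks with a base in both other lists and 97.3% with the control list alone, but 82.0% with the U2AF1 list alone, against which the members' share was 7.30 points higher (3.25 to 12.03). The share inside genes was higher by 3.02 points (1.84 to 4.23), and the share outside genes by 1.21 points with an interval that reached 0 (-0.03 to 2.44). These differences went with peak strength: within quintiles of fold enrichment the start site difference was -0.30 points (-2.33 to 1.84) and the gene body difference 1.52 (-0.09 to 2.96). The difference outside genes turned to -1.22 points (-2.98 to 0.38) within quintiles, with -8.47 (-14.1 to -3.44) in the weakest quintile. The start site and gene body differences were -0.25 and 0.09 points among peaks whose -log10 q was 5 or more, neither of which could be told from 0. All these intervals treat peaks as independent and cover counting error only.

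The peaks found only under DHX9 knockdown differed in location from the peaks found only in 1 of the other lists. Peak strength was not matched across lists here. In the weakest quintile of DHX9 knockdown fold enrichment, 75.5% of members were at a start site. Of the control-only peaks 67.7% were at a start site, 21.6 points fewer (95% Newcombe interval of the difference 18.1 to 25.2). Of the U2AF1-only peaks 49.1% were at a start site, 40.2 points fewer (35.0 to 45.3). Peaks outside genes made up 29.8% of the control-only and 23.6% of the U2AF1-only peaks, against 5.04% here. Gene body peaks made up 27.3% of the U2AF1-only peaks, against 5.67% here, while the control-only share of 2.47% was below it. At start sites, the members' share near a coding gene start differed from that of control-only peaks by 0.57 points (-1.47 to 3.12). The share of starts with more G than C downstream differed by -0.90 (-5.25 to 3.66). Against U2AF1-only peaks these differences were 6.25 (2.27 to 11.7) and 4.84 points (-2.02 to 12.2).

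**Figure D2:**
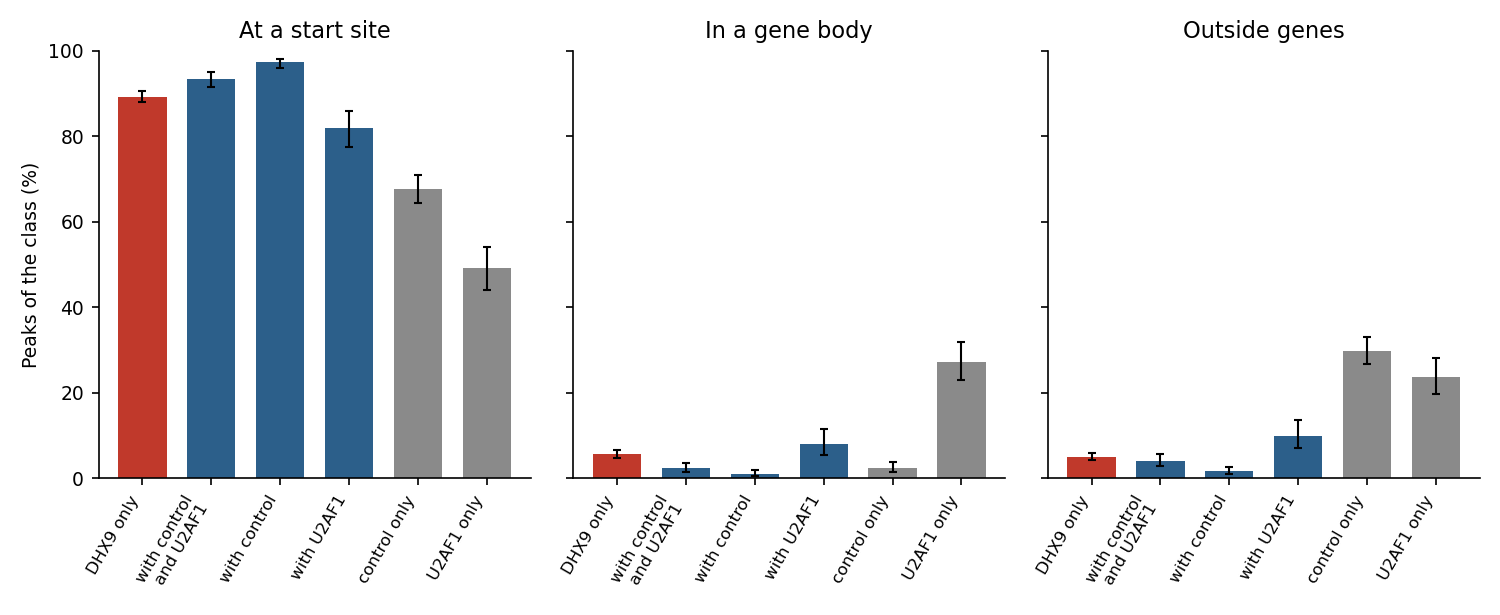
Share of peaks at a start site, inside a gene body and outside genes (percent, 95% Wilson intervals) for peaks found only under DHX9 knockdown (red), DHX9 knockdown peaks with a base in the other lists (blue) and peaks found only in the control or U2AF1 list (grey). The start site share was 89.3% for the first class, 67.7% for control-only and 49.1% for U2AF1-only peaks.

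At start sites the summits lay close to the start and mostly just downstream of it. The median summit lay 23 bp downstream of the nearest start (quartiles -14.5 and 71.0), against 28 bp (-5.25 and 66.0) in the other DHX9 knockdown peaks. Of the 1967 summits at starts, 66.3% (64.2 to 68.4) lay downstream and 71.0% within 100 bp, against 69.9% (67.9 to 71.9) and 74.8%. The fullest bin, from the start to 50 bp downstream, held 657 summits (33.4%), and 169 (8.59%) lay 100 to 150 bp downstream, against 118 (5.97%) of the others.

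The coding strand turned from C-rich to G-rich across these starts. Mean G skew, which is (G-C)/(G+C), was -0.020 in the 100 bp that end 100 bp upstream of the start and 0.080 in the first 100 bp downstream, against 0.087 at the starts of the other peaks and 0.043 over all coding genes. Over the first 300 bp downstream, 1344 of 1967 starts (68.3%) had more G than C, against 70.9%, a difference of -2.57 points whose interval reached 0 (-5.44 to 0.30). The difference depended on the window: it was -3.34 points (-6.25 to -0.43) over 150 bp and 0.62 (-2.25 to 3.49) over 500 bp. With lists of equal length it was 2.37 (-2.29 to 6.89) over 300 bp.

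**Figure D3:**
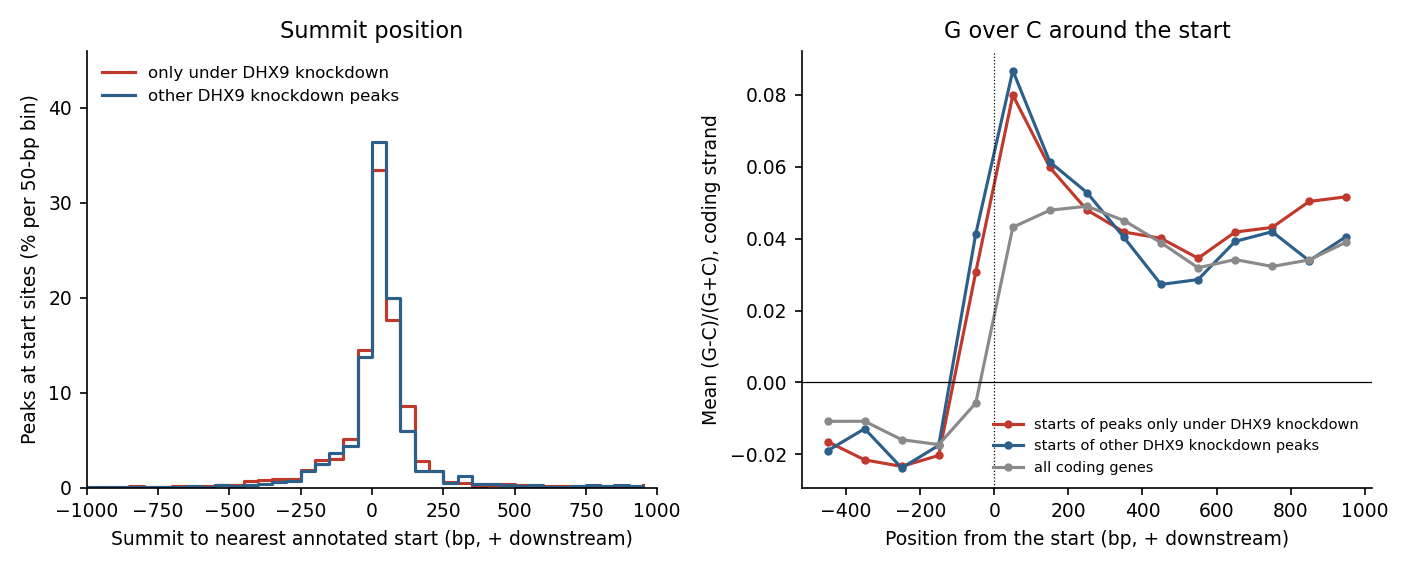
Left, summit position relative to the nearest annotated start in 50-bp bins, as a percentage of the 1967 start site peaks found only under DHX9 knockdown (red) and of the 1976 others (blue). Right, mean G skew of the coding strand in 100-bp bins around the same starts and around the starts of all coding genes (grey); both sets of starts peak in the first 100 bp downstream, at 0.080 and 0.087, above the 0.043 of all coding genes.

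The genes at these starts were mostly protein-coding. A coding gene had a start within 1000 bp of 94.6% of the 1967 start site peaks, against 91.6% of the others, a difference of 2.96 points (1.39 to 4.55). The nearest start belonged to a small nuclear RNA gene at 2 members and 46 others, and to a ribosomal RNA gene at 1 and 22. Long noncoding RNA genes were nearest at 204 members and 211 others. Genes facing away from each other shared the promoter of 34.4% of the start site peaks, against 37.9%, a difference of -3.44 points (-6.43 to -0.44) that was -2.34 (-5.34 to 0.67) where summits within 250 bp counted as shared.

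CpG islands, the GC-rich stretches at most housekeeping promoters, underlay these peaks. A window of 300 bp around the summit had a GC content of at least 55% and an observed-over-expected CpG ratio of at least 0.65 at 86.9% of members and 90.3% of the others, a difference of -3.37 points (-5.26 to -1.48). At start sites alone the shares were 93.2% and 93.6%, with a difference of -0.39 points (-1.94 to 1.17). The direction turned with peak strength. In the strongest quintile, 172 of 175 members (98.3%) and 619 of 703 others (88.1%) were island-like, a difference of 10.2 points (6.35 to 13.1), while in the middle quintile the difference was -5.53 points (-8.70 to -2.27). Strength was not matched inside the strongest quintile, where others reached a fold enrichment of 111.8 and members 10.8. At its start site peaks, 95.3% of members and 86.8% of others were near a coding gene start. With lists of equal length the island-like difference over all peaks was 7.05 points (4.26 to 9.65).

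Short motifs were sought on both strands in the 300 bp around each summit. TATAAA was found at 43 of 2203 members (1.95%, 1.45 to 2.62) and 116 of 2113 others (5.49%), a difference of -3.54 points (-4.70 to -2.42), and in 11.5% of 35116 RefSeq promoters (GRCh38, 250 bases before to 50 after the start). Histone and small RNA genes were fewer among members. Without their starts the shares were 1.99% and 5.10%, a difference of -3.11 points (-4.30 to -1.99), and within quintiles of fold enrichment the difference was -1.47 (-2.72 to -0.46). The ETS core CCGGAAG was found at 17.7% of members and 14.5% of others, a difference of 3.13 points (0.93 to 5.32), and in 10.3% of RefSeq promoters. Without histone and small RNA starts it was 2.24 points (-0.04 to 4.51).

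The AP-1 site TGANTCA was found at 68 members (3.09%) and 38 others (1.80%), a difference of 1.29 points (0.37 to 2.23), and in 7.71% of RefSeq promoters. It was 1.01 points (-0.06 to 2.26) among peaks with a -log10 q of at least 5. GGGCGG, the GC box that SP1 binds, was found at 73.7% of members and 77.0% of others. A G-quadruplex pattern, here 4 runs of at least 3 G with loops of 1 to 7 bases, was found at 34.7% and 37.9%, and in 25% of RefSeq promoters. For the GC box and the G-quadruplex pattern the differences, -3.33 and -3.23 points, had intervals below 0 over all peaks and across 0 at start sites (-4.06 to 1.03 and -5.78 to 0.25). The GC box was in 45% of RefSeq promoters, and its GGG can be 1 run of the G-quadruplex pattern.

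The other 9 motifs had intervals that included 0. The CCAAT box (CCAAT) was found at 20.8% of members, 21.0% of others and 34.6% of RefSeq promoters, the core of the cyclic AMP response element (TGACG) at 30.9%, 33.1% and 24.6%, and the NRF1 site (TGCGCA) at 13.4%, 11.9% and 8.24%. In the same order the E-box (CACGTG) was at 8.17%, 7.81% and 7.26% and the YY1 site (AAGATGG) at 7.85%, 6.77% and 5.84%. The telomere repeat (TTAGGG), the heat shock element core (GAANNTTC), a pyrimidine-rich start (CTCTTTCC) and the THAP11 and ZNF143 core (ACTACAA) were at 5.08%, 2.68%, 1.77% and 1.59% of members, against 9.05%, 6.77%, 3.04% and 2.77% of RefSeq promoters. A match is only a match of letters, and 14 motifs were searched with no adjustment for their number.

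**Figure D4:**
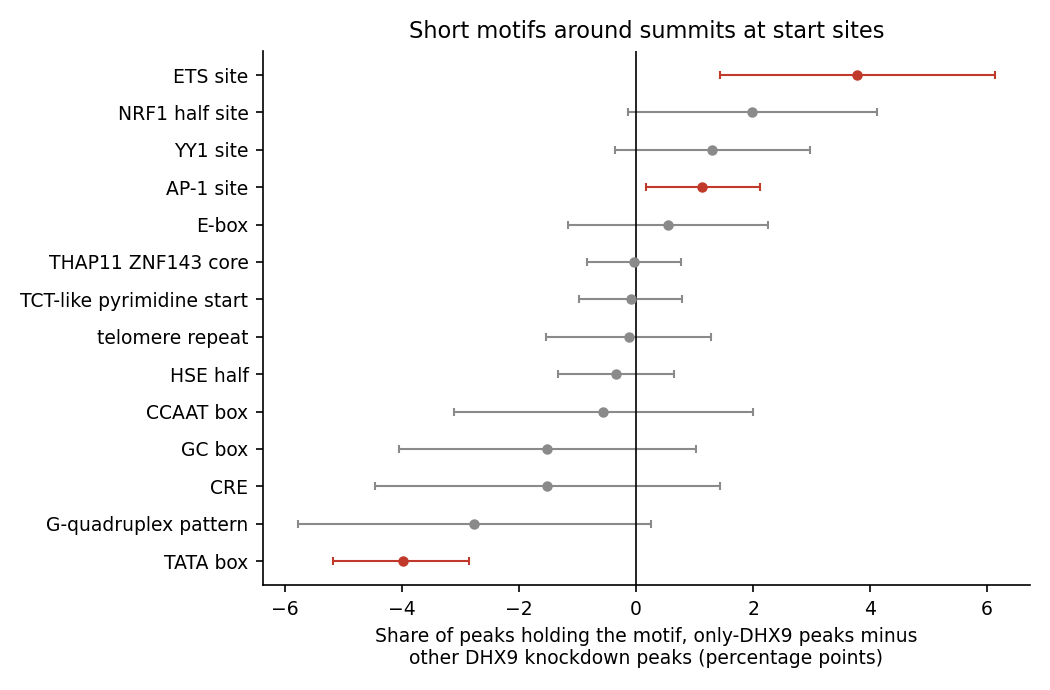
Difference in the share of start site peaks that hold each motif, peaks found only under DHX9 knockdown minus other DHX9 knockdown peaks, in percentage points with 95% Newcombe intervals (red where the interval excludes 0, grey otherwise). The TATA box lies lowest, at -3.99 points, and the ETS site highest, at 3.78 points.

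Counted by gene, 2158 of 20046 coding genes (10.8%) had a peak found only under DHX9 knockdown at a start, and 2131 had another DHX9 knockdown peak there. Both were present at 88 genes. Of the 2158, 143 also had a peak of another list at one of their starts, and 1985 (92.0%) had no peak of another list anywhere over the gene. A member shares no base with another list by the rule, so these counts largely follow from it. They are descriptions, and no matching share was computed for other genes. The counts below are read against 10.8%, a base that includes coding genes with no DHX9 knockdown peak. Among the 4201 coding genes with any DHX9 knockdown peak at a start, 51.4% had a member. The counts describe lists of known gene groups and were not tested. A gene whose start lies within 1000 bp of a neighbour's shares its peak with it.

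Genes of RNA processing come first. Of the 21 factors that recognise the 3′ splice site, 6 (28.6%, 95% Wilson interval 13.8 to 50.0) had such a peak and 2 had another DHX9 knockdown peak. The strongest were RBM17, which carries a U2AF homology motif, at a fold enrichment of 7.92, SF1, the branch point protein, at 7.45, and SF3B4, a subunit of the U2 particle, at 7.28. Of the 45 genes of spliceosomal particle and LSM proteins, 11 (24.4%) had one and 6 had another DHX9 knockdown peak. Among the 11 were SNRNP40 at 7.27 and LSM10 at 7.21. LSM10 belongs to the U7 particle, which cuts histone messenger RNA and is not part of the spliceosome. SR proteins and hnRNPs, which set splice site choice, had 10 of 48 (20.8%) with a member, led by HNRNPL at 7.0, and 15 with another peak. Of the SR and hnRNP genes with any DHX9 knockdown peak, 45.5% had a member, against 51.4% over all coding genes. The same share was 75% for the 8 such 3′ splice site factors and 64.7% for the 17 such spliceosomal particle and LSM genes.

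Of 36 enzymes and factors that limit or resolve R-loops, 7 (19.4%, 9.75 to 35.0) had a peak found only under DHX9 knockdown and 8 had another DHX9 knockdown peak. That interval holds the 10.8% of all coding genes. RNASEH1, which degrades RNA in hybrids, had 22 fragments and a fold enrichment of 7.94. BRCA2, of homologous recombination, had 7.57, and TDRD3, a partner of topoisomerase 3B, had 6.63. Others of the list, named after their values were seen, were DDX19A (5.60), RECQL5 (4.92) and DDX5 (3.82). DDX5 also had control and U2AF1 knockdown peaks at a start. Of 54 DEAD and DEAH box helicases, the family of DHX9, 9 (16.7%, 9.02 to 28.7) had a member and 9 another peak. This interval also holds 10.8%. DHX30, a helicase of mitochondrial ribosome assembly, led at 7.51.

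Nuclear pore genes had the largest share of the 28 lists: 12 of 33 (36.4%, 22.2 to 53.4), with 6 that had another DHX9 knockdown peak. The interval is wide and overlaps that of the splice site factors above. Among the 18 nuclear pore genes with any DHX9 knockdown peak at a start, 66.7% had a member. NUP50 had a fold enrichment of 7.59 and 23 fragments, RANBP2 6.52 and NUP160 6.35. The weakest of the 12 was NDC1, a membrane-bound pore protein, at 3.38. Factors of mRNA export and decay by the exosome had 6 of 29 (20.7%, 9.85 to 38.4) with a member and 4 with another peak. That interval holds the 10.8% of all coding genes. ALYREF, an export adaptor, led at 5.72.

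Genes of protein synthesis followed. Mitochondrial ribosomal protein genes had 21 of 77 (27.3%, 18.6 to 38.1) with a member and 13 with another DHX9 knockdown peak, led by MRPS33 at 7.69, MRPS24 at 7.4 and MRPS26 at 7.08. Cytosolic ribosomal protein genes had 21 of 89 (23.6%, 16.0 to 33.4) with a member and 40 with another peak. Among the 60 with any DHX9 knockdown peak at a start, only 35% had a member, against 51.4% over all coding genes. For mitochondrial ribosomal protein genes this share was 63.6%. The member at RPL8 had 8.40 and that at RPL6 7.73, but RPL6 also had control and U2AF1 knockdown peaks at a start. Cytosolic ribosomal protein genes have many processed copies in the genome. The summit windows of these 21 had no further placement of at least 200 bp at 95% identity. Aminoacyl tRNA synthetase genes, which charge tRNAs, had 9 of 37 (24.3%) with a member and 5 with another peak, led by EARS2 at 7.26, MARS2 at 6.63 and RARS1 at 6.10. EARS2 and MARS2 act in mitochondria and RARS1 in the cytosol. Translation factors had 15 of 72 (20.8%) with a member and 16 with another peak. The strongest were the initiation factors EIF3B at 8.26, EIF5B at 6.63 and EIF1AX at 6.44. EIF3B also had a control peak at a start. The list of translation factors was drawn by symbol, and 5 of its 15 genes with a member are not such factors. They are the methyltransferases EEF1AKMT1 and EEF1AKMT3, the kinases EIF2AK2 and EIF2AK3 and the transport protein EIF4ENIF1. Among genes with any DHX9 knockdown peak at a start, 51.7% of the translation factor list and 64.3% of the synthetases had a member.

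Of the polymerase's own machinery, 12 of 48 pausing and elongation genes (25%, 14.9 to 38.8) had a member and 14 another peak. Among those with any DHX9 knockdown peak at a start, 48% had a member, against 51.4% over all coding genes. CDK9, the kinase that releases paused polymerase, had a fold enrichment of 6.28, CPSF4, of 3′ end cleavage, 6.12 and ELOB, of the elongin complex, 6.07. General transcription factor and Mediator genes had 13 of 76 (17.1%, 10.3 to 27.1) with a member, led by TAF5 at 10.1, and 11 with another peak. That interval holds the 10.8% of all coding genes. The subunits of RNA polymerase II had 2 of 16 (12.5%), POLR2B at 5.89 and POLR2K at 4.19, while 8 had another DHX9 knockdown peak.

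Stress and metabolic genes gave mixed counts. Of 31 genes of the integrated and endoplasmic reticulum stress responses, 8 (25.8%) had a member and 13 another peak. The strongest members were at PDIA6, CANX and ASNS, at 6.35, 5.97 and 5.48, and CANX also had a control peak at a start. Glycolysis enzymes had 5 of 20 (25%) with a member, led by the hexokinases HK2 at 6.28 and HK1 at 5.60, and 6 with another peak. Among genes with any DHX9 knockdown peak at a start, 40% of the stress response list and 45.5% of the glycolysis list had a member. Over all coding genes this share was 51.4%. Oxidative phosphorylation had 13 of 84 (15.5%, 9.27 to 24.7) with a member, an interval that holds the 10.8% of all coding genes, and 15 with another peak. DNA replication and cell cycle genes had 12 of 71 (16.9%, 9.94 to 27.3) with a member and 12 with another peak. Proteasome subunit genes had 5 of 39 (12.8%) with a member, led by PSMD7 at 6.80, and 5 with another peak. Immediate early genes, which respond within minutes to growth signals, had 6 of 37 (16.2%, 7.65 to 31.1) with a member and 13 (35.1%) with another peak. KLF2 led them at 5.60. Actin and tubulin genes had 4 of 34 (11.8%) with a member, led by TUBB3 at 8.59, and 7 with another peak. The intervals of the replication and cell cycle, proteasome, immediate early, and actin and tubulin lists also hold 10.8%.

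Other lists lay near or below the share of all coding genes, and the interval of each holds 10.8%. Replication-dependent histone genes, which have short intronless transcripts, had 5 of 69 (7.25%) with a member, led by H1-3 at 5.69, and 34 (49.3%) with another DHX9 knockdown peak. Heat shock chaperone genes had 6 of 76 (7.89%) with a member, led by BAG4 at 5.32, and 16 (21.1%) with another. Small nucleolar RNA host genes had 3 of 34 (8.82%) against 17 (50.0%). Targets of p53, which large T antigen binds in these cells, had 1 of 29 (3.45%), AEN at 3.08, against 9 (31.0%). Interferon and double-stranded RNA response genes had 3 of 43 (6.98%), among them IRF1 at 5.40 and EIF2AK2, the kinase PKR, at 3.67. The HOX genes had 1 of 39, HOXB9 at 4.78. C2H2 zinc finger genes named ZNF had 65 of 508 (12.8%, 10.2 to 16.0), against 39 (7.68%) with another peak, led by ZNF354A.

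**Figure D5:**
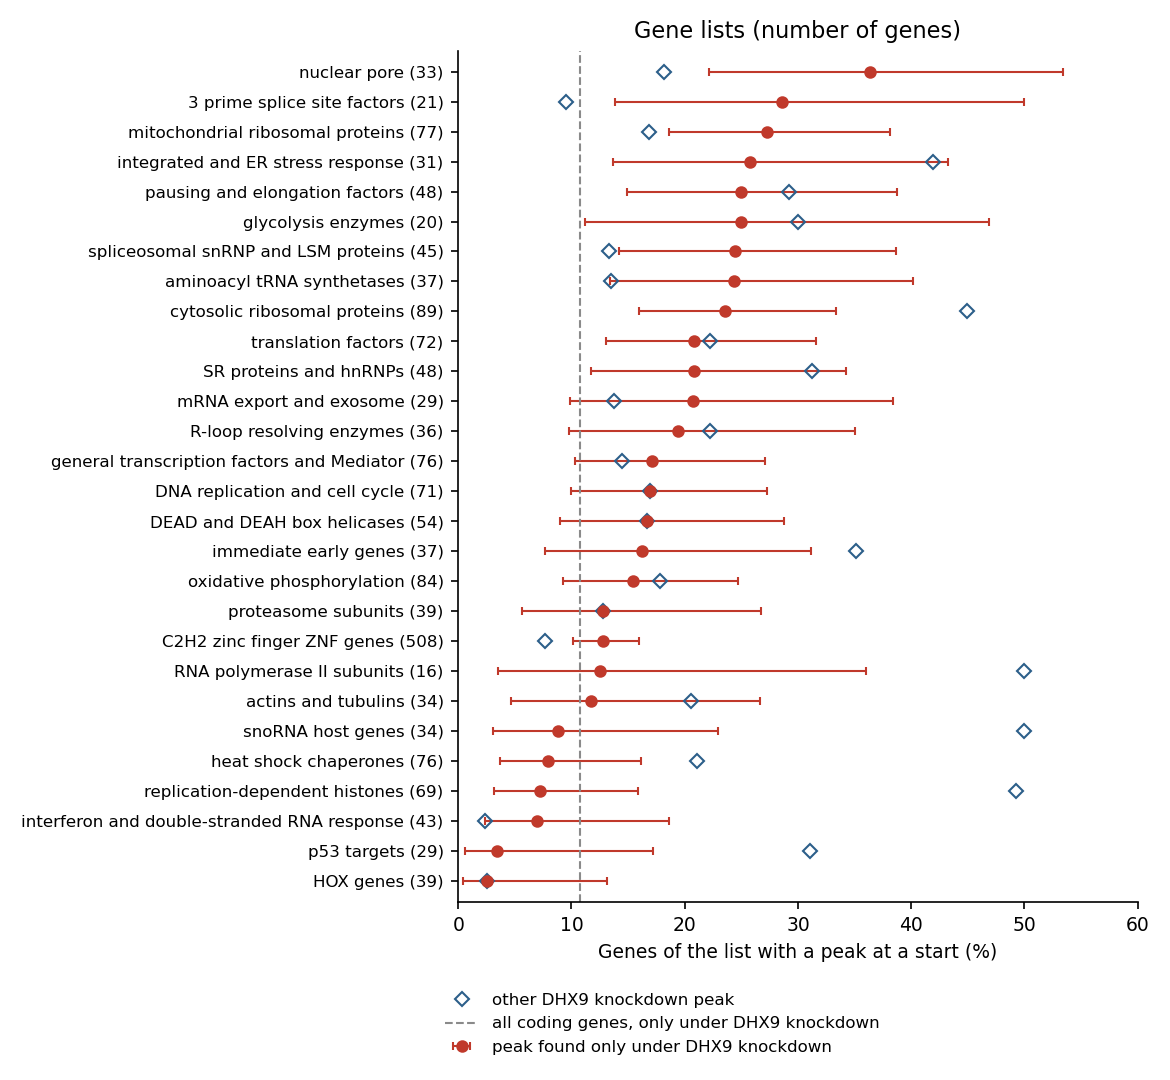
Percentage of the genes of each list with a peak found only under DHX9 knockdown at a start (red, with 95% Wilson intervals) and with another DHX9 knockdown peak there (blue diamonds); numbers of genes are in brackets and the dashed line is the 10.8% of all coding genes. Nuclear pore genes are highest at 36.4%, and histone, snoRNA host and p53 target genes combine red points below the line with diamonds at 49.3%, 50.0% and 31.0%.

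The 125 peaks inside genes were weaker than those at starts, with a median fold enrichment of 3.94 and 14 fragments, and lay at a median of 7539 bp from the nearest start. Introns held 106 of them (84.8%). The strongest was in an intron of SLC29A3, a nucleoside transporter, with a fold enrichment of 7.50 and 20 fragments, 13154 bp from the nearest start. It was followed by intronic peaks in the long noncoding genes ENSG00000259052 (6.63) and ZSCAN16-AS1 (6.36), in RBM19 (6.35), a nucleolar protein of ribosome assembly, and in BCOR (5.98), a corepressor. CpG island-like sequence underlay 41 of the 125 (32.8%, 25.2 to 41.4), against 36 of 56 (64.3%) gene body peaks among the others, a difference of -31.5 points (-45.1 to -15.8).

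The 111 peaks outside genes had a median fold enrichment of 4.24 and lay at a median of 11936 bp from the nearest start. The strongest were on chromosome 7 (chr7:76166635-76166971, 7.68) and chromosome 20 (chr20:58620041-58620690, 7.65), and the next at chr6:53359171-53359732 (6.38), chr17:31549626-31550075 (6.35) and chr13:30182430-30182799 (6.31). The last was A and T rich, with 39.0% GC around its summit, against 61.7 to 74.7% for the other four.

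Repeated sequence was more common away from starts. Of the 300-bp summit windows, 152 of 2203 (6.90%) had a further placement of at least 200 bp at 95% identity or more, against 197 of 2113 (9.32%) of the others. The share was 3.66% (2.92 to 4.58) at start sites, 39.2% (31.1 to 48.0) inside genes and 27.9% (20.4 to 36.9) outside genes, against 6.07%, 57.1% and 55.6% in the others. How the authors treated reads with several placements is not given in the sources used here, and the part of these copies in the gene body peaks was not tested. Another 45 members lay on sequences without annotation here, 17 on alternate haplotypes and 28 on unplaced or unlocalized sequences.

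Members were spread over the chromosomes. Over the autosomes they made up between 40.4% of DHX9 knockdown peaks (46 of 114 on chromosome 21, 95% Wilson interval 31.8 to 49.5) and 59.9% (133 of 222 on chromosome 16, 53.3 to 66.1), around the 50.6% of the whole list. Chromosome 1, with the most peaks, had 213 of 489 (43.6%, 39.2 to 48.0), and the X chromosome 58 of 98 (59.2%). Coding genes with a member only had a median length of 36.6 kb, against 34.4 kb for genes with another DHX9 knockdown peak only and 25.5 kb for genes with neither.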

How the data were processed

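The data were 3 narrowPeak lists of POLR2A ChIP-seq in HEK293T cells, 1 per condition (9 samples in all: 2 ChIP and 1 input each). The submitters' processing notes name Bowtie2 2.4.5, MACS2 2.2.7.1, deepTools 3.5.1 and hg38, with no parameters. The lists hold the authors' fold enrichment at the summit (a ratio), the deposited -log10 p and -log10 q values, summit offsets and a narrowPeak score that was not used, per the values and the standard column order. All sequence names occur in hg38.

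Peaks were compared by shared bases (at least 1). Summit fragments and background were solved from fold enrichment and -log10 p, assuming a pseudocount of 1 and a Poisson tail; this gave whole numbers for 2248 of 2248 members and 2185 of 2195 others (tolerance 0.001). Summits were placed against GENCODE 44, and windows read from hg38 with pysam 0.24.0. Second placements came from minimap2 2.31-r1302. Shares carry 95% Wilson intervals and differences Newcombe intervals; a difference is called where its interval excludes 0. Scripts ran in Python 3.11.15 and were tested on simulated data.

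Named peaks were the 10 strongest, the 5 strongest in gene bodies and outside genes, the 3 on each side of the rule's edge, the 3 strongest per gene list, and genes with 3 or more members; printed sequences are from the strongest members, chromosome 8 and repeated windows left out, with the motif outside exons. The members and the lists were chosen with earlier results of these data known. The closing section gives the alternative thresholds, overlap rules, windows and chromosome sets. A few peaks that these rules name are not reported here.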

Additional observations from a re-analysis of the deposited data

How the results depend on the processing

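No paired analysis was possible because a condition comes as a single list of peaks, and for that reason no replicate could be left out. Counts fell to 1096 peaks with a -log10 q of at least 5 in the DHX9 knockdown list, 1423 with that threshold in all lists (fewer peaks elsewhere to overlap) and 615 with lists of equal length. Under these 3 settings in turn, the start site difference became -0.254, -0.0246 and 1.91 percentage points, the gene body difference 0.0921, -0.0518 and -0.846, and the CpG island-like difference 1.76, 4.32 and 7.05. The start site difference was -1.23 with coding genes only and -0.302 within quintiles of fold enrichment. Within quintiles the gene body difference was 1.52 and the CpG island-like difference -2.38, which was still called. The divergent promoter difference had intervals reaching 0 with the threshold in all lists (-3.66), equal lengths (-2.44), summits within 250 bp (-2.34) and a start window of 2000 bp (-2.18). The difference outside genes was called on chromosomes 1 to 22 and X (1.34) and with a window of 2000 bp (1.31), but turned negative with equal lengths (-1.07), coding genes only (-0.803) and within quintiles (-1.22). The G-rich strand difference was called with summits within 250 bp (-3.36) and 150 bp downstream (-3.34), but turned positive with equal lengths (2.37) and 500 bp downstream (0.622). Of 74 values under the alternatives listed at the outset, 46 were unchanged, meaning a like count of peaks or a difference that kept direction and call. Among alternatives chosen after seeing the data, the GC box difference was -1.52 at start sites, -0.510 with the DHX9 threshold and -1.63 within quintiles, and the G-quadruplex difference -2.77, -0.687 and -2.76. The ETS difference was 2.24 without histone and small RNA starts. With the DHX9 threshold the AP-1 difference was 1.01, and the NRF1 site (2.74), YY1 (2.85) and THAP11 core (-0.937) differences were called. Motif differences not called in either setting turned sign for the CCAAT box (1.77) and the THAP11 core (0.0683) within quintiles, the THAP11 core without histone and small RNA starts (0.0718), and the telomere repeat (0.211) and heat shock element (0.101) with the DHX9 threshold. With strong members only, no p53 target had a member, a ratio of 0 to all coding genes. The ratios of the other 27 lists stayed within their wide intervals for all members. The strong-member interval came to exclude a ratio of 1 for R-loop genes (2.93, 1.38 to 5.60). It did so too for the oxidative phosphorylation, general transcription factor and Mediator, and replication and cell cycle lists. It came to include 1 for translation factors (1.71, 0.84 to 3.29), glycolysis and stress response genes. Other than where list length or threshold sets the count by construction, the cause was not tested. Depth is not given, so weak peaks absent from a list cannot be told from peaks under its threshold.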

Other observations

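A small set of the peaks found only under DHX9 knockdown had many fragments over a high background. In 48 of 2248 peaks (2.14%) at least 45 fragments were stacked at the summit, with a median of 74 over a background of 35.9 and a median fold enrichment of 2.03. Of these, 25 lay on sequences without annotation here. Of the 23 on annotated chromosomes, 3 were at a start site and 18 had a second placement in the genome. Among the other DHX9 knockdown peaks 272 (12.4%) reached 45 fragments, with a median background of 15.7, and 133 of 207 on annotated chromosomes were at a start.

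In all, 10 annotated genes had 3 peaks found only under DHX9 knockdown inside them or at a start, and several of these clusters lay in repeated sequence. Overlapping genes can share a cluster, and ENSG00000291336 and ENSG00000291338 had the same 3 peaks. The overlapping long noncoding RNA genes DANT1 and DANT2 on the X chromosome shared 3 intronic peaks with fold enrichments of 3.55, 2.84 and 2.68 and 34, 31 and 103 fragments, each with 17 to 19 further placements. BRF1, a factor of RNA polymerase III transcription, held 2 intronic peaks with 92 and 95 further placements and 1 peak at the start of the neighbouring gene BTBD6 (6.00, no further placement). The 3 peaks of ENSG00000280441 on chromosome 21 had fold enrichments from 1.98 to 2.09 over backgrounds of 27.4 to 43.3. In contrast, the 3 peaks at MAZ, a zinc finger transcription factor, lay within 437 bp of a start and had no further placement, with fold enrichments of 4.52, 4.96 and 3.47. Those of ENSG00000283782, a read-through gene, lay at the starts of IRF1-AS1, IRF1 and RAD50.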
